A study of Mus musculus with 10 samples.

Results

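Fth1 and Trf, the genes of the ferritin heavy chain and of transferrin, were examined in the hypothalamus of young and aged mice. They are 2 of 19505 genes with a value, and each had 1 probe set, so the rule that keeps the probe set with the highest mean over the 10 arrays left no choice. Both genes were chosen by their Old and Young values on these arrays, so the difference between ages is described for them without a test. The tissue was the hypothalamus of C57BL/6J males, a common inbred mouse strain, aged 24 weeks (Young, 5 arrays) or 138 weeks (Old, 5 arrays), kept with free access to food and water. No genetic change or treatment is named for either group. RNA was measured on Clariom S Mouse arrays, a 1-colour platform whose probe sets each represent a transcript, and the values are read as log2 signal. The labels do not state that each array was a separate animal, so the spread between arrays may in part be technical.

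Ferritin is a hollow protein shell that stores iron inside cells. Its heavy chain, encoded by Fth1, oxidises ferrous iron so that it can be laid down in the shell, and its light chain, encoded by Ftl1, helps to form the mineral core. Transferrin carries ferric iron between cells and delivers it through the transferrin receptor Tfrc. In the brain Trf is made mainly by oligodendrocytes, the iron-rich cells that form myelin, and by the choroid plexus, whereas in the rest of the body it is a product of the liver. Ferritin is controlled largely at translation: the iron regulatory proteins, encoded by Aco1 and Ireb2, bind a hairpin in the untranslated start of its messenger RNA when iron is scarce, so a messenger level is not a protein level.

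Both ferritin chains were higher in Old, and 100 bases before an annotated start of each are shown, from RefSeq on GRCm38.p6. The table used here has 2 starts for Fth1, 1 for Ftl1 and 0 for Trf. Of the 2 Fth1 starts, only the one with a match to the box marked below is shown. Whether these sequences bear on the difference between ages was not tested. Capitals mark CCAAT, the box bound by the factor NF-Y, which reads ATTGG here because each match is on the opposite strand.
Fth1, chr19:9982546-9982645, plus strand: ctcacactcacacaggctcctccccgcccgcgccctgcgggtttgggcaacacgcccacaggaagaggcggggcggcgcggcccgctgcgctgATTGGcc
Ftl1, chr7:45459887-45459986, minus strand: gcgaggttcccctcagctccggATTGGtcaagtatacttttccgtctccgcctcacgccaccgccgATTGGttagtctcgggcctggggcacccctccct

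In the 250 bases before the start, searched on both strands, this Fth1 start had 1 match, with 2 bases between it and the start, and Ftl1 had 2, with 29 and 73 bases between. The other Fth1 start, at base 9980600 of chromosome 19, had 0 matches. CCAAT on either strand occurred in 33.8% of the 32851 promoters of the table, so a match is common. The loop of the iron-responsive hairpin, CAGTGN, was searched on both strands in the 50 bases after each start. Fth1 and Ftl1 had 0 matches there, and 13.2% of promoters had a match on either strand. Only the strand of the messenger could carry the loop, and the rest of the untranslated region was not searched. The 0 therefore does not show that the hairpin is absent.

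Most of the deposited values carry no usable spread. For 97.9% of the 22206 probe sets the SD over the 10 arrays was 1e-05 log2; these are called collapsed, and they have a level but cannot show a difference. The 276 genes (1.42%) with an SD of at least 0.01 log2 are called varying, and Fth1 and Trf are among them. How far the differences of varying genes were also shrunk is unknown, so every fold below describes the deposited values. Of 16 measured hypothalamic markers 13 lay above the array median, which was 6.778 to 6.783 log2 on the 10 arrays. On Young 5 the 7 varying choroid plexus markers summed to 7170 linear units (2 raised to the log2 value), where the other arrays had 727 to 869. On Young 3 the 2 varying liver markers, Alb and Mup2, summed to 280, where the others had 122 to 156.

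Fth1 was slightly higher in every Old array. In Young it measured 12.57, 12.54, 12.53, 12.50 and 12.51 log2 on arrays 1 to 5, and in Old 12.60, 12.70, 12.62, 12.66 and 12.63. The Old arrays all lay above the Young arrays, with 0.029 log2 between the highest Young and the lowest Old value; the Young values spanned 0.071 and the Old values 0.10. The means were 12.53 ± 0.027 and 12.64 ± 0.041 log2 (SD, n = 5). Old thus exceeded Young by 0.11 (SE 0.021), which is 1.08-fold. Among varying genes, 20.7% had Old values wholly above Young values; since Fth1 was chosen with this contrast known, nothing is read from that share. A larger absolute difference was found in 137 of the 276 varying genes.

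The size of the Fth1 difference depended on how the arrays were scaled. Fth1 has the highest mean level of all named genes, and its probe set ranked 8th among all probe sets on 8 of the 10 arrays, 4th on Old 2 and 5th on Old 4. Quantile normalization gives equal ranks equal values, so it set Fth1 to 12.58 log2 on those 8 arrays, to 12.67 on Old 2 and to 12.66 on Old 4, and left a difference of 0.036 (SE 0.021). Among the 100 named genes with the highest mean level, 14 varied; relative to the mean of the 13 others on the same array, Fth1 was higher in Old by 0.063 log2, with Young arrays at -0.03 to 0.04 and Old arrays at 0.04 to 0.09 around the Young mean. Those 13 genes are not a neutral standard, since their own differences ran from -0.10 to 0.58.

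Trf differed more, but its groups overlapped. It measured 10.58, 10.44, 10.71, 10.41 and 10.42 log2 on Young 1 to 5, and 10.73, 10.70, 10.82, 10.86 and 10.57 on Old 1 to 5. Young 3 reached the level of the Old arrays, and Old 5 lay just under Young 1; 3 of the 5 Old arrays were above all Young arrays, and 3 of the 5 Young arrays were below all Old arrays. The means were 10.51 ± 0.13 and 10.73 ± 0.11 log2 (SD, n = 5). Old exceeded Young by 0.22 (SE 0.074), which is 1.17-fold. The Trf difference is 0.20 to 0.27 when Young arrays are left out one at a time, and 0.27 without Young 3, the array with high liver transcripts. It is 0.20 without Young 5, the array with high choroid plexus transcripts, where Trf was among the lowest.

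**Figure D1:**
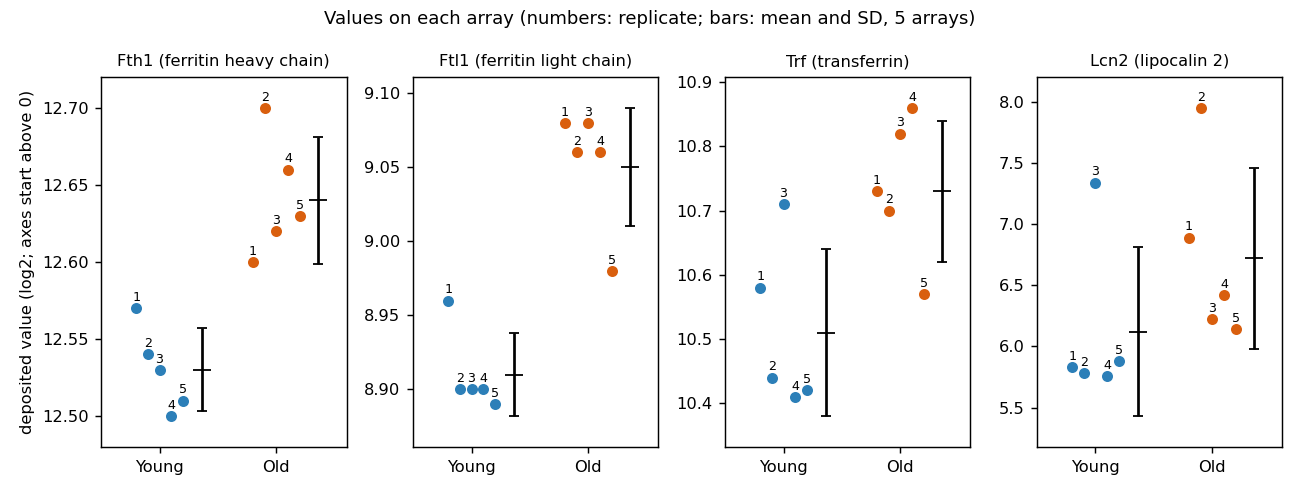
Deposited values (log2, axes not starting at 0) of Fth1, Ftl1, Trf and Lcn2 on the 5 Young and 5 Old arrays; points are arrays numbered by replicate, and bars are the mean and SD. Old points lie wholly above Young points for Fth1 (12.60 and more against 12.57 and less) and Ftl1 (8.98 and more against 8.96 and less), and the groups overlap for Trf and Lcn2.

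The light chain Ftl1 rose with age. Its values were 8.96, 8.90, 8.90, 8.90 and 8.89 log2 in Young and 9.08, 9.06, 9.08, 9.06 and 8.98 in Old. The groups did not overlap, and Young 1 and Old 5 were closest to the other group. The means were 8.91 ± 0.028 and 9.05 ± 0.04 log2 (SD, n = 5). Ftl1 rose by 0.14 (SE 0.021), which is 1.1-fold, with an adjusted p of 0.0375 in limma's fit to all 19505 genes (Benjamini-Hochberg, 2-sided). The exact permutation test gave an unadjusted p of 0.00794, the smallest that 5 against 5 allows. Any gene whose groups do not overlap gets this p, so it adds nothing to the lack of overlap. Of the varying genes, 20.7% had Old values wholly above Young values. In the limma fit to the varying genes alone the adjusted p was 0.00267. Ftl1 is no member of the selected pair but was listed as part of the iron pathway with earlier results of these data known.

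In the fit to all genes the call of Ftl1 changed with single arrays. It held in 2 of the 10 limma fits that leave out 1 array, those without Young 1 or without Old 5, and the adjusted p ran from 0.00676 to 0.135 while the difference stayed at 0.13 to 0.16. It was lost with the replicate number as a block (adjusted p = 0.126) and without Young 3 and Young 5 together (0.376). In the varying genes alone, a set picked by its spread over all 10 arrays, it held in all 10 fits, with an adjusted p of at most 0.00934. RefSeq lists 2 pseudogenes named for the heavy chain and 3 for the light chain, and whether either probe set takes signal from such copies was not tested.

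Of the 60 genes listed for iron handling 58 were measured. Among the 56 other than Fth1 and Trf, 1 rose (Ftl1) and 0 fell at an adjusted p under 0.05 in the limma fit to all genes, where 0.190% of all genes rose and 0.0308% fell. At an unadjusted p under 0.05 there were 3 of the 56, beside 6.82% of all genes. The median difference of the 56 genes was 7.2e-07 log2, beside -8.7e-08 over all genes, since 52 of them were collapsed and 1, Slc22a17, lay between collapsed and varying. Only Ftl1, Lcn2 and Steap1 of these 56 genes varied.

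Lcn2, a siderophore-binding lipocalin that reactive astrocytes secrete, measured 5.83, 5.78, 7.34, 5.76 and 5.88 log2 in Young and 6.89, 7.95, 6.22, 6.42 and 6.14 in Old. Young 3 stood above 4 of the 5 Old arrays. The difference was 0.60 (SE 0.43, adjusted p = 0.871 in the limma fit to all genes and 0.272 in that to the varying genes; exact permutation p = 0.238). Steap1, of the metalloreductase family, differed by -0.10 (SE 0.1, adjusted p = 0.921 with limma), and its highest value, 6.22 log2, was that of Young 5. Neither difference passed the test.

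The other steps of iron handling had levels but no measurable difference. The receptors were collapsed except Slc22a17, with Tfrc, through which cells take up transferrin iron, at 7.47 log2. The exporter Slc40a1 (ferroportin) was collapsed at 6.51 log2, and the ferroxidases Cp and Heph, which oxidise iron as it leaves cells, at 7.38 and 7.12. The divalent metal transporter gene Slc11a2 was at 7.71 log2. The regulators Aco1 and Ireb2 had 7.93 and 8.78 log2, and Ncoa4, the receptor that delivers ferritin for breakdown, 9.43. Hmox1, which frees iron from heme, was at 6.77 log2. All 6 measured genes listed for export and oxidation, Hamp and Hamp2 among them, were collapsed. So were all 8 regulators, 12 heme genes and 7 mitochondrial iron genes measured. No statement on the change of these genes with age can be made.

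Trf moved with the myelin genes from array to array. After the mean of each age group was subtracted, so that the difference between ages could not enter, the varying genes most like Trf over the 10 arrays were Fa2h (Pearson r = 0.95), Mobp (0.94), Dbndd2 (0.94), Cldn11 (0.90) and Laptm5 (0.83). Fa2h hydroxylates fatty acids of myelin lipids, Mobp is a structural protein of myelin, Cldn11 forms the tight junctions of the myelin sheath, and Laptm5 is a lysosomal protein of microglia and other leukocytes. Without Young 3 and Young 5 the r values of these 5 genes were 0.95, 0.93, 0.91, 0.83 and 0.89. Over all 7 varying oligodendrocyte markers the median r with Trf was 0.77 (0.50 to 0.94), beside 0.16 over all 275 other varying genes. Without Young 3 that median was 0.64 (0.24 to 0.93), with Mal at 0.24, Car2 at 0.40 and Ermn at 0.57. These r values are descriptions: the points are 10 arrays that share their RNA, their scaling and whatever differed in dissection.

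The myelin genes most like Trf were split in their difference between ages. Dbndd2 is given with them for its r, and its link to myelin was not examined. Mobp was higher in Old by 0.10 log2 (SE 0.035), Dbndd2 by 0.13 (SE 0.053) and Mbp, the myelin basic protein gene, by 0.085 (SE 0.03). Fa2h and Cldn11 were lower in Old, at -0.21 (SE 0.064) and -0.24 (SE 0.055). None of these 5 genes passed in the limma fit to all genes; Fa2h and Cldn11 passed in that to the varying genes, with adjusted p of 0.0302 and 0.00828. Of the 7 varying oligodendrocyte markers 4 were higher and 3 lower in Old, with a median difference of 0.067. In the limma fit to all genes 0 of the 16 measured markers rose and 0 fell. In the fit to the varying genes 0 of 7 rose and 1 fell (Cldn11), where 24.6% of varying genes rose and 11.2% fell.

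**Figure D2:**
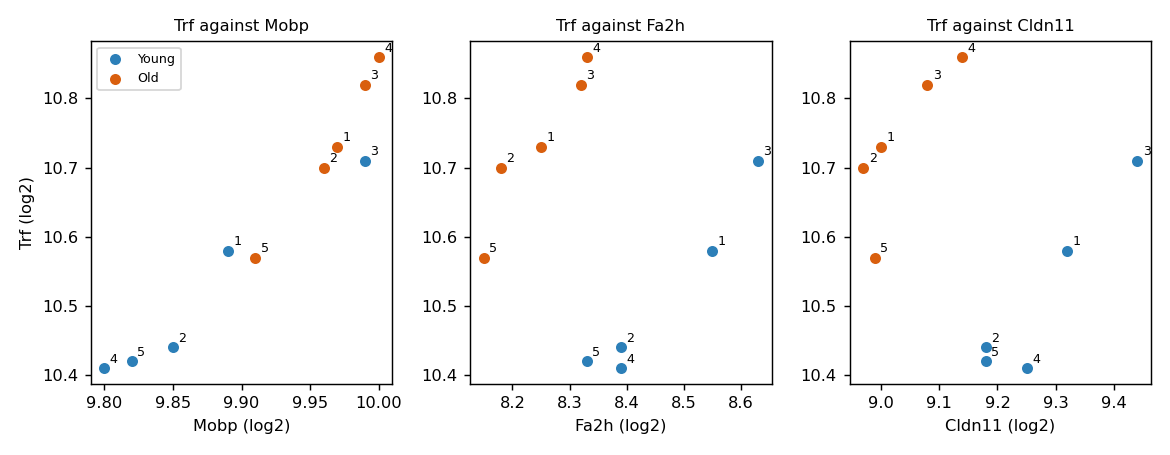
Trf (log2) against Mobp, Fa2h and Cldn11 (log2) on the 10 arrays; points are arrays numbered by replicate. Within each age Trf is higher where the myelin gene is higher (r within age 0.94, 0.95 and 0.90); all Old arrays lie to the left of the Young arrays for Cldn11, and the ages overlap for Fa2h and Mobp.

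Summed over the 7 varying oligodendrocyte markers, linear values were 8120 to 9190 on Young arrays and 8430 to 9040 on Old arrays, and Young 3, with the highest Young value of Trf, had the highest sum of all 10 arrays. Fewer cells of a type and less RNA per cell cannot be told apart in bulk tissue. The 5 Young arrays had a mean of those 7 markers of 9.97 ± 0.079 log2, and the 5 Old arrays 9.97 ± 0.055 (SD), since some were higher and others lower. Subtracting that mean on each array, which was tried after the values were seen, therefore left the mean difference of Trf at 0.22 log2. It did narrow the spread: Young arrays then lay at -0.06 to 0.08 and Old arrays at 0.09 to 0.28 around the Young mean (SD 0.056 and 0.076). The groups then did not overlap, by the margin of 0.08 against 0.09. Trf was chosen with this contrast known, and the markers varied with it on the same arrays. How often other genes separate after this subtraction was not examined. Nothing is therefore read from the separation, and no test was run.

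Choroid plexus and liver also make Trf, and their markers stood high on 1 array each. Young 5, where the choroid plexus marker Ttr reached 12.44 log2, had Trf at 10.42, below 3 of the other 4 Young arrays, and the 7 varying choroid plexus markers had within-age r values with Trf of -0.27 to -0.13. Young 3, where the liver gene Alb reached 6.87 log2, had the highest Young value of Trf. The within-age r of Trf with Alb was 0.59 and fell to 0.04 without Young 3, that with Mup2 was 0.76 and 0.62, and that with Mobp was 0.94 and 0.93. Mup19, Mup22 and Mup9, which are not on the marker list, had r values with Trf of 0.76, 0.75 and 0.74 over the 10 arrays. By mean level 0 of the 12 measured liver markers lay above the array median, and only Alb and Mup2 of them varied. No measured gene stood at 0 on this log scale, and no detection call was used.

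At the other end, the genes least like Trf were Rbm3 (r = -0.89), Cirbp (-0.80) and Ifit3b (-0.76). Rbm3 and Cirbp encode RNA-binding proteins induced by cooling, and Ifit3b is induced by interferon. Rbm3 measured 8.92 and 8.85 log2 on Young 1 and Young 3, where Trf was high, and 9.34 to 9.48 on the other Young arrays. All 3 genes were higher in Old, as Trf was, by 0.78 (SE 0.14), 0.22 (SE 0.059) and 1.04 (SE 0.059), so their order within an age ran against Trf while the difference between ages did not.

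Fth1 did not follow the myelin genes or Trf. Within age groups its r was 0.20 with Trf, 0.19 with Ftl1 and, over the 7 varying oligodendrocyte markers, -0.09 to 0.27. The varying genes most like it were Psat1 (r = 0.85), Pitpnc1 (0.84), Prrt1 (0.83), Vwf (0.79) and Cnih2 (0.78). Psat1 is an enzyme of serine synthesis, Prrt1 and Cnih2 encode partners of AMPA receptors, and Vwf encodes the von Willebrand factor of endothelium. The least like were Ednrb (-0.68), Luzp2 (-0.60) and Lactb2 (-0.59), and each of these 3 lies further from 0 than its rank correlation of -0.39, -0.52 and -0.35.

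Of the 5 genes most like Fth1 within an age, 3 differed from it in their direction between ages. Prrt1 was lower in Old by -0.19 log2 (SE 0.04), Cnih2 by -0.14 (SE 0.027) and Pitpnc1 by -0.12 (SE 0.04), whereas Psat1 was higher by 0.18 (SE 0.039) and Vwf by 0.22 (SE 0.11). Psat1 measured 9.03, 8.93, 8.96, 8.93 and 8.85 log2 in Young and 9.08, 9.23, 9.07, 9.12 and 9.07 in Old. Like Fth1, it was highest on Young 1 among the Young and on Old 2 and Old 4 among the Old arrays. Without subtracting the age means, the genes most like Fth1 were Psat1 (r = 0.96), C4a (0.94) and C1qb (0.94), and those most like Trf were Mobp (0.97), Dbndd2 (0.96) and Mbp (0.91); these values include the difference between ages.

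**Figure D3:**
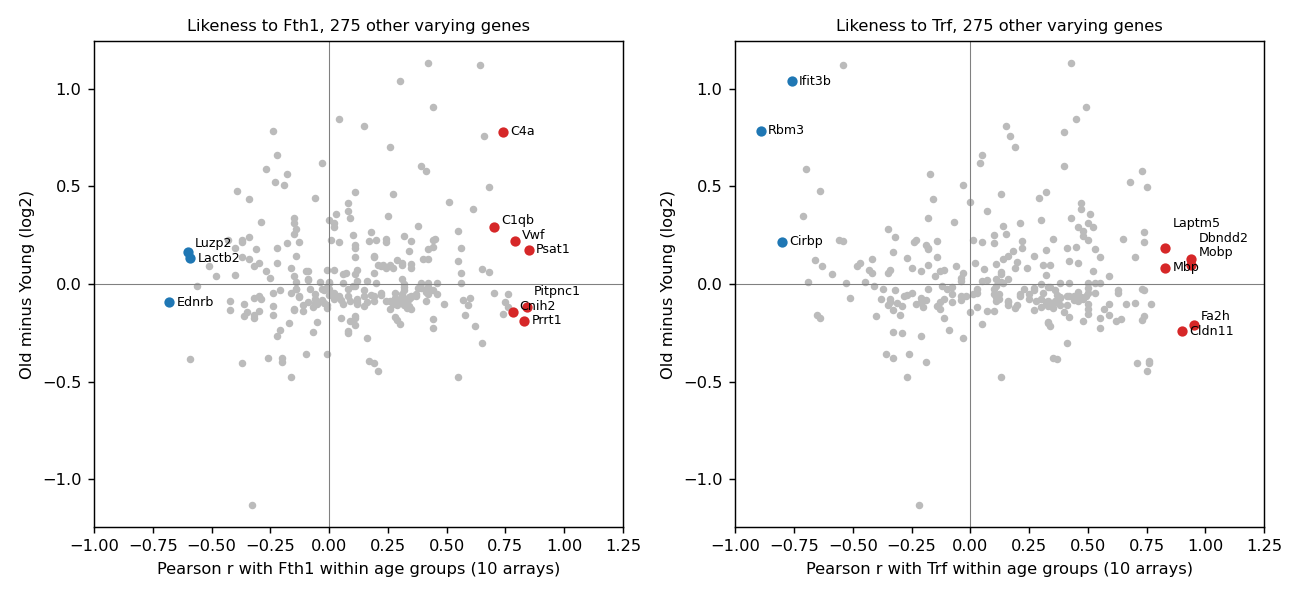
Pearson r with Fth1 (left) or Trf (right) over the 10 arrays after subtracting the age means, on the horizontal axis, against the Old minus Young difference (log2), for the 275 other varying genes; named genes are coloured red for positive and blue for negative r. Genes most like Trf, such as Mobp (0.10) and Cldn11 (-0.24), lie on both sides of 0 on the vertical axis, as do Psat1 (0.18) and Prrt1 (-0.19) for Fth1.

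Microglia take up and store iron in ferritin, and the 4 of their 13 measured markers that varied had higher means in Old. These 4 summed to 1020 to 1100 linear units in Young and 1340 to 1550 in Old, with no overlap. Ctss had the largest difference of the 4, and Laptm5 overlapped (8.11 to 8.33 log2 in Young, 8.20 to 8.53 in Old). The other measured markers had an SD under 0.01 log2, so the sum does not speak for microglia markers in general. In the limma fit to all genes 3 of the 13 markers rose and 0 fell, beside 0.190% and 0.0308% of all genes, and 2 of these 3, C1qc and Trem2, did not vary and differed by 0.0059 and 0.0017 log2. C1qc passed in 1 of the 10 fits that left out an array, and Trem2 in 10. Neither C1qc nor Trem2 passed without Young 3 and Young 5 (adjusted p = 0.221 and 0.141, limma). In the fit to the varying genes 3 of 4 rose, beside 24.6% of all varying genes. Ctss, the protease cathepsin S, rose by 0.91 log2 (SE 0.047, adjusted p = 0.000172 in the limma fit to all genes). C1qa and C1qb, chains of complement C1q, were higher by 0.34 (SE 0.056) and 0.29 (SE 0.048), each with an adjusted p of 0.0719 in that fit. Within age groups Fth1 had an r of 0.70 with C1qb, 0.56 with Laptm5, 0.44 with Ctss and 0.09 with C1qa, a median of 0.50 beside 0.11 over all 275 other varying genes. Trf had an r of 0.52, 0.83, 0.49 and 0.43 with the same 4 markers, a median of 0.51. The part of microglia in the difference of Fth1 was not tested.

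Astrocytes, the glia that support neurons and also hold ferritin, had 5 varying markers of 10 measured, which summed to 7480 to 7720 linear units in Young and 7270 to 7690 in Old. In the limma fit to all genes 1 of the 10 rose and 1 fell, beside 0.190% and 0.0308% of all genes. In the fit to the varying genes 1 of 5 rose and 2 fell (Kcnj10 and Gja1), beside 24.6% and 11.2% of varying genes. Gfap, an intermediate filament protein, was the one that rose in either fit, by 0.44 log2 (SE 0.065, adjusted p = 0.0396 in the limma fit to all genes). It passed in 2 of the 10 all-gene fits that left out an array, those without Young 5 and without Old 5. It also passed without Young 3 and Young 5 together (adjusted p = 0.0432, limma). Kcnj10, a potassium channel, fell by 0.48 log2 (SE 0.056, adjusted p = 0.0104 in the limma fit to all genes). It passed in 10 of the 10 fits that left out an array, but not without Young 3 and Young 5 (adjusted p = 0.168, limma). Within age groups Fth1 had an r of 0.68 with Aldoc, 0.55 with Kcnj10, 0.20 with Slc1a2, -0.06 with Gfap and -0.35 with Gja1, a median of 0.20. Their part in the difference of Fth1 was not tested.

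**Figure D4:**
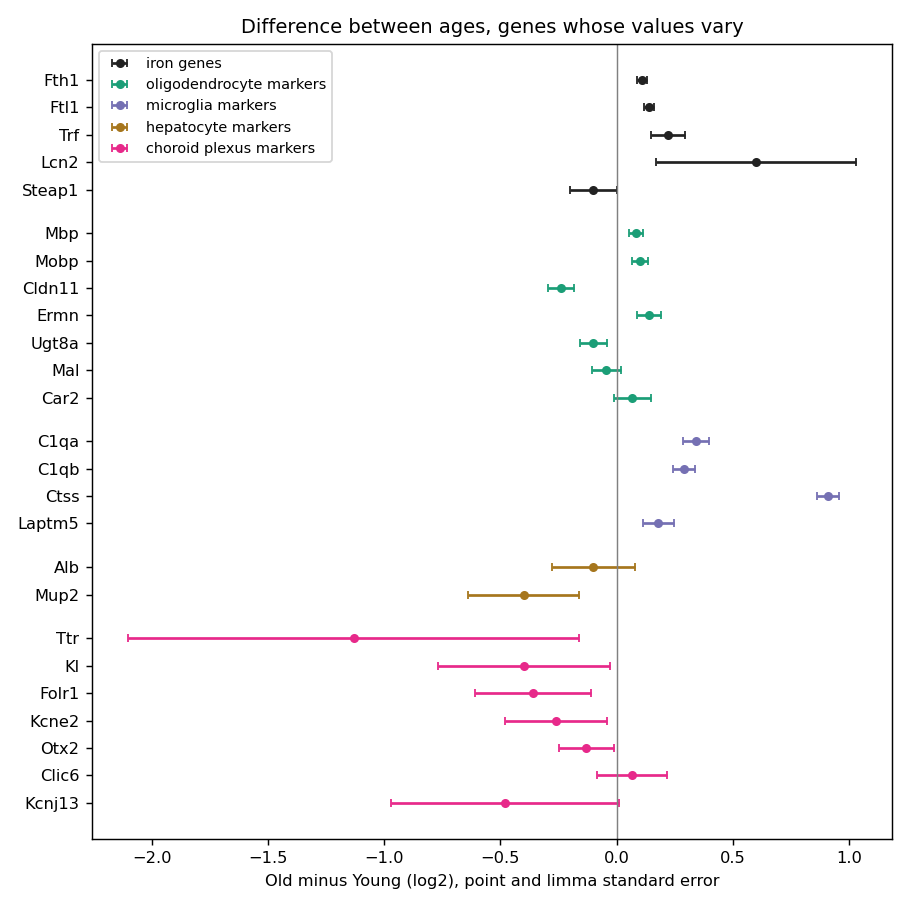
Old minus Young difference (log2, point) with limma's standard error (bar) for Fth1, Ftl1, Trf, Lcn2 and Steap1 and for the varying markers of oligodendrocytes, microglia, hepatocytes and choroid plexus. Fth1 (0.11), Ftl1 (0.14) and Trf (0.22) lie above 0, the 4 microglia markers lie above 0, and the 7 oligodendrocyte markers lie on both sides.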

How the data were processed

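The 10 arrays were grouped by title. The deposited table holds log2 values, 1 per probe set and array; the log base is read from their range of 5.00 to 12.97, and how the authors corrected, normalized and summarised the signal was not given in the sources used here. Total RNA (100 ng per sample) was labelled with biotin as cDNA, per the labels' protocols. Gene names came from the annotation of the platform (19572 of 22206 with 1 symbol, 0 with several, 2634 unnamed here); all 19572 identifiers matched RefSeq of GRCm38.p6. No array coordinates were used. Each gene is represented by its probe set of highest mean level.

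Old was compared with Young over all 19505 genes with limma 3.58.1 (R 4.3.3; lmFit, eBayes, Benjamini-Hochberg, threshold 0.05), and again over the 276 varying genes. The procedure was also run on simulated data with independent noise and changes larger than those of Fth1, Ftl1 and Trf. That run does not show how the procedure treats differences of their size. The members, the iron and marker lists, the tests and the alternatives were chosen with earlier results of these data known. Genes named are the 2 members, listed iron genes that vary or pass, for each member the 5 varying genes with the highest and the 3 with the lowest within-age r and the 3 with the highest r over all arrays, and varying markers of cell types that stand apart. The choroid plexus and liver arrays, the iron genes without a spread, and markers and Mup genes beyond that rule were named after their values were seen. No pairing of arrays by replicate number was assumed in the main fit. Same-numbered arrays correlated at -0.22 to 0.28 over the varying genes after the age means were subtracted, which cannot settle whether they were paired. No detection call, scan date or batch was used; precision is limited by the number of arrays.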

Additional observations from a re-analysis of the deposited data

Results flagged for a closer look

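For 44 varying genes the lowest or highest array of each age group was compared with the array next to it. In 19 of the 88 groups the gap was more than 0.71 of the range. Chance gives about 1 in 20 for a single group of independent values. These groups share arrays, and some genes were named after an array was seen to stand apart, so the count cannot be set against that rate. Among iron genes, Ftl1 had Young 1 at 8.96 log2 (nearest 8.90) and Old 5 at 8.98 (nearest 9.06), the arrays of each group closest to the other. Lcn2 had Young 3 at 7.34 (nearest 5.88), and Steap1 had Young 5 at 6.22 (nearest 5.78). Fth1 and Trf had no such array.

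Of the genes most or least like the pair, Old 2 stood apart for Vwf (7.04, nearest 6.48), Ednrb (9.68, nearest 9.90) and Lactb2 (7.38, nearest 7.60), and Old 2 also had the highest Fth1. Ifit3b was lowest on Young 3 (7.01, nearest 7.17).

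Young 5 was highest for the choroid plexus markers Ttr (12.44, nearest 7.97), Kl (8.50, nearest 6.67), Folr1 (7.74, nearest 6.52), Kcne2 (6.89, nearest 5.80), Clic6 (8.33, nearest 7.69) and Kcnj13 (8.85, nearest 6.35), and Young 3 for the liver gene Alb (6.87, nearest 6.17). Among astrocyte markers, Gfap was highest on Young 5 (9.13, nearest 8.90), Gja1 lowest on Young 3 (10.10, nearest 10.17), Aldoc highest on Old 2 (11.86, nearest 11.74) and Kcnj10 lowest on Old 1 (9.19, nearest 9.45).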

How the results depend on the processing

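The Trf difference kept its direction and stayed within the spread of its arrays under every alternative run (0.19 to 0.29 log2, and 0.19 to 0.27 with single arrays left out). That of Fth1 was 0.10 to 0.12 without single arrays, but 0.036 with quantile normalization and 0.063 relative to other varying bright genes. With the replicate number as a block the differences of Fth1 and Trf were 0.11 and 0.22, 0 iron genes rose, and 10 genes rose and 1 fell over all genes. The r of Fth1 with Psat1 was 0.71 as Spearman's rho.

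Of the 56 other iron genes, 1 rose and 0 fell; 2 rose and 22 fell with quantile normalization, and 53 fell with median centring, since both shift collapsed genes by far more than their SD of 1e-05. Over single arrays left out, 0 to 1 rose. None rose (0) without Young 3 and Young 5, with a trended robust prior, without moderation, or at a threshold of 0.01. Ftl1 had adjusted p of 0.0902 and 0.102 with the trended prior and without moderation.

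Over all genes 37 rose and 6 fell; with quantile normalization 546 and 7633, with median centring 92 and 19273, without Young 3 and Young 5 22 and 2, in the varying genes alone 68 and 31, and at a threshold of 0.01 21 and 2. A trended robust prior gave 10 lower.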
